A study of Mus musculus with 18 samples.

Results

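Lysosomal hydrolases and lysosomal membrane proteins were followed as a group of 39 genes, chosen by name from the 20207 genes listed for each library. The group held 7 membrane proteins, 11 peptidases, 11 glycosidases, 3 sulfatases and 7 genes of lipid handling. All 39 were listed, and 36 reached 1 read or more in each of the 18 libraries and were tested. The 3 that were not tested were peptidases: Ctsc had 0 reads in every library, Ctsh at most 2 and Ctsf at most 8.

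Poly(A) RNA was sequenced from NIH3T3 cells, an established line of mouse fibroblasts, that stably express DD-GFP. DD is a destabilizing domain of FKBP12 that stays folded while its ligand S1 is bound, and here it was fused to superfolder GFP. The cells had been sorted for high GFP, and S1 was kept in the medium of all 6 groups, so the control carries DD-GFP and S1 as well. The control was harvested at 0 min, at 37°C without tunicamycin. None of the 6 groups was left untreated for 45, 135 or 405 min, so stress and time in culture cannot be told apart. Heat shock (HS) groups were shifted to 42°C for 45 or 135 min, and tunicamycin (Tun) groups received 5 µM tunicamycin at 37°C for 45, 135 or 405 min. Each group had 3 libraries, labelled as replicates. Whether these came from separate cultures is not given in the sources used here, so p-values measure only the spread between these samples, which may be technical.

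Lysosomes degrade proteins, glycans, glycolipids and lipids with acid hydrolases, and their limiting membrane carries heavily glycosylated proteins together with channels and transporters. Most of these proteins enter the endoplasmic reticulum (ER), where they receive N-linked glycans, and many soluble hydrolases are then tagged with mannose 6-phosphate in the Golgi and sorted to the lysosome. Tunicamycin blocks the first step of N-linked glycosylation, so lysosomal proteins are among the cargo that it affects. The promoters of many lysosomal genes hold an E-box with the letters CACGTG, the core of the CLEAR element that TFEB and its relatives bind.

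Promoter sequences are shown for 4 members because they differ in the E-box and in their response. Lamp1 held the most copies and was not called by edgeR at any time while all libraries were used. It was called higher at 405 min of tunicamycin without control replicate 1, where 62% of all genes were called. Mcoln1 held copies and was higher at 405 min of tunicamycin, Gla held copies and was lower, and Lamp2, the member with the largest fall, held none. Each sequence is the 250 bases before the RefSeq start on GRCm38.p6, read along the gene's own strand, with CACGTG in capitals. The positions are chr8:13158911-13159160 on the plus strand for Lamp1, chr8:3500269-3500518 on the plus strand for Mcoln1, chrX:134601006-134601255 on the minus strand for Gla and chrX:38456461-38456710 on the minus strand for Lamp2.
Lamp1: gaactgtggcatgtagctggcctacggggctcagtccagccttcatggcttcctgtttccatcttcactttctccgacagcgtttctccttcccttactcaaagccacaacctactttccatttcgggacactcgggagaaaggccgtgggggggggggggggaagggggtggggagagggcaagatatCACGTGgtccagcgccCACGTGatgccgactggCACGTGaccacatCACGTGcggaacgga
Mcoln1: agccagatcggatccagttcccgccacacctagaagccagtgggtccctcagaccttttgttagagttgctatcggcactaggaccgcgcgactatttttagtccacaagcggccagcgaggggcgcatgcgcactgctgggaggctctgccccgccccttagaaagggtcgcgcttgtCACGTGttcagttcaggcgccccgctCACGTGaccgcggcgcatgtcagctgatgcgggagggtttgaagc
Gla: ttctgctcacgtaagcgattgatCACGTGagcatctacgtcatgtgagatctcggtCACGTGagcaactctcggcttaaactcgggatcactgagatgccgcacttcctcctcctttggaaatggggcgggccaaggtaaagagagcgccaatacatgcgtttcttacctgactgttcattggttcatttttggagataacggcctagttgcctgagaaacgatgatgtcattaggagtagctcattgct
Lamp2: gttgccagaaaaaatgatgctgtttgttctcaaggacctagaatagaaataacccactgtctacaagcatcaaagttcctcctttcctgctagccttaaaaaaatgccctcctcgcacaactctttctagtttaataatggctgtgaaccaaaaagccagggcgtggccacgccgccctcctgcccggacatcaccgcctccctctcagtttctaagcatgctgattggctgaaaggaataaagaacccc

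The E-box lay in promoters of members that were higher, lower and not called. CACGTG, which is its own reverse complement, lay in the promoter window (250 bases before to 50 after a start) of 12 of the 35 members with a RefSeq window, that is in 12 of the 39 windows of these genes, some of which have more than 1 start (30.8%), against 7.15% of all 32851 windows. The 12 were Lamp1, Mcoln1, Ctsa, Ctsd, Ctsf, Ctsl, Lgmn, Gla, Gaa, Glb1, Naglu and Arsa, and Lamp1 held 4 copies. Ctsl was counted at the start that RefSeq gives, which may be an internal one. Of the members with a window, 2 of the 7 that were higher at 405 min of tunicamycin held it, 2 of the 7 that were lower and 7 of the 19 that were not called; these shares were not tested against each other. TCACGTG, which contains CACGTG and was searched on both strands, lay in windows of 10 members, or 25.6% of member windows against 3.77% of all. TGACGTG, most of the UPR element that XBP1 and ATF6 bind, was searched on both strands and lay in 1 member, Cd63, or 2.56% of member windows against 2.01% of all. The ER stress element, searched on both strands as CCAAT and CCACG with 9 bases between them, lay in 0 member windows and in 0.119% of all windows. These matches describe letters in 1 window per start and are not binding sites.

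Each library had 33415592 to 66478268 reads assigned to genes, and 3 reads corresponded to 0.0451 to 0.0898 CPM (counts scaled to a common library size, with TMM factors over the 18 libraries). Genes known to respond to the stresses were checked first, and they were called in some of the groups. Hspa1b, an inducible Hsp70, rose from 5.76 ± 0.468 in the control to 873 ± 530 CPM at 135 min of HS (SD, n = 3). Hsph1, an Hsp110 chaperone, rose from 202 ± 38.8 to 2028 ± 743 CPM. Hspa5, the ER chaperone BiP, rose from 692 ± 40.4 to 9012 ± 252 CPM at 405 min of tunicamycin, and Ddit3, the transcription factor CHOP, from 71.9 ± 2.29 to 2630 ± 402 CPM. The 6 ER stress genes checked were all called higher at 405 min of tunicamycin, 3 of 6 at 45 min and 4 of 6 at 135 min of HS. At 135 min of tunicamycin edgeR called 0 of 6 in either direction, with 4 at an unadjusted p under 0.05 and 3 by DESeq2. These counts mix directions: Ddit3 and Herpud1 lay above the control in all 3 libraries, and Hspa5 and Sdf2l1 below it. Of the 5 heat shock genes checked, all were called higher at 135 min of HS, and 0 at 45 min by edgeR, with 5 at an unadjusted p under 0.05 and 4 by DESeq2. At 135 min of tunicamycin Hspa5 had 415 ± 79.1 CPM, below the control in all 3 libraries, and was not called (adjusted p = 0.135, edgeR). The 10 fibroblast markers summed to between 21000 and 78100 CPM in every library. The 10 macrophage markers, a cell type rich in lysosomes, summed to 5.86 to 10.4 CPM, and 1 of them was at 0 in all 18 libraries. Epithelial, endothelial and muscle markers summed to at most 1.21, 1.06 and 3.48 CPM.

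Libraries of the HS groups differed widely from each other, and this preceded any comparison of the lysosomal genes. Ctsl, cathepsin L, had 509, 90.2 and 928 CPM in replicates 1, 2 and 3 at 45 min and 1007, 177 and 576 CPM at 135 min. Gla, alpha-galactosidase A, had 8.38, 3.05 and 26.3 CPM at 45 min and 34.4, 5.10 and 22.7 CPM at 135 min. The spread followed the GC content of the transcript, which ran from 38.7% for Lamp2 to 59.8% for Naglu. Across the 36 members, the Spearman correlation between GC content and the change from the control mean was 0.70 in HS 45 min replicate 1 and 0.73 in replicate 2, but -0.09 in replicate 3. At 135 min it was -0.07 in replicate 1, 0.73 in replicate 2 and 0.52 in replicate 3. All genes with a GC value (12409) showed it too, at 0.60, 0.58 and 0.00 in the 3 replicates at 45 min. These are correlations across genes of 1 library, which share its depth and preparation and are not replicates. In replicate 1 of Tun 135 min the value was 0.70, and the 3 control replicates had 0.47, -0.43 and -0.31. The study's methods name both a bench protocol and an automated kit for the libraries, without saying which was used for which sample, and the part of library preparation in this spread was not tested.

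**Figure D1:**
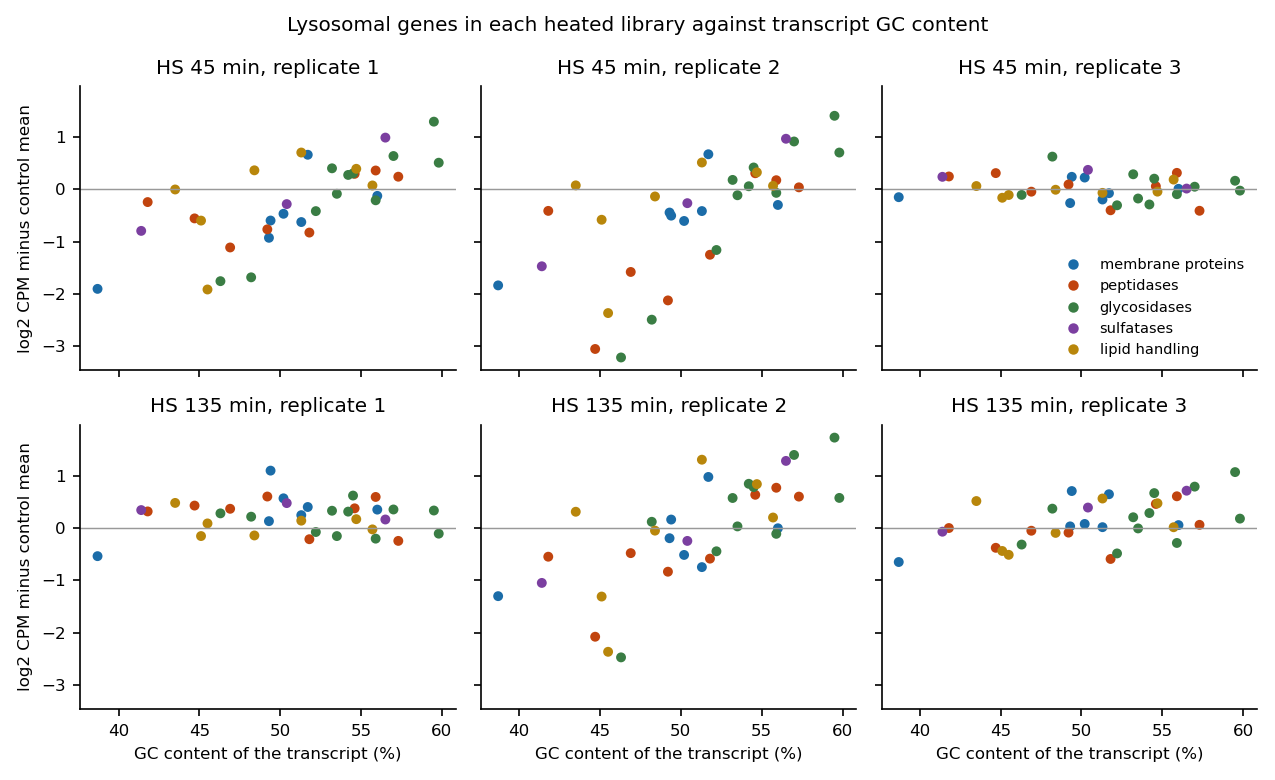
Change of the 36 lysosomal genes in each heated library (log2 CPM minus the mean log2 CPM of the 3 controls) against the GC content of the transcript in percent, with 1 point per gene coloured by class. The change followed GC content in replicates 1 and 2 at 45 min and 2 and 3 at 135 min, and lay flat in replicate 3 at 45 min and replicate 1 at 135 min.

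In the control, lysosomal genes were well expressed. The median of the 36 tested members was 18.4 RPKM (the deposited value, scaled for gene length and library total) against 6.65 RPKM over all 12731 genes tested, and 26 members lay above 10 RPKM and 7 above 100 RPKM. Reads on the members made up 0.759% ± 0.042 of all counted reads (SD, n = 3). Cd63, a tetraspanin of late endosomes and lysosomes, was the highest membrane protein and the highest member at 563 ± 75.4 RPKM. Its values of 515, 524 and 649 RPKM overlapped those of Lamp1, the most abundant of the lysosomal membrane glycoproteins, at 518, 346 and 367 RPKM.

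Psap, the precursor of the saposins that present glycolipids to their hydrolases, led the lipid genes at 407 ± 4.06 RPKM and overlapped Lamp1. Ctsl led the peptidases at 329 ± 61.8 RPKM and stood above Ctsd, the aspartyl protease cathepsin D (191 ± 6.18 RPKM), without overlap. Ctsb, cathepsin B, followed at 123 ± 30.6 RPKM and overlapped Ctsz. Gaa, the acid alpha-glucosidase that degrades glycogen, led the glycosidases at 71.3 ± 14.1 RPKM. Arsa, arylsulfatase A, had the highest mean of the sulfatases at 17.4 ± 3.17 RPKM, and its replicates overlapped those of Arsb (16.2 ± 1.51 RPKM). Lamp2 had 94.4 ± 12.4 RPKM. Npc1, the membrane protein that exports cholesterol, had 7.94 ± 0.138 RPKM, between Ids and Neu1 in the order, and its replicates overlapped those of both. At the bottom, Manba, lysosomal beta-mannosidase, passed the filter with only 1 to 19 reads per library.

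**Figure D2:**
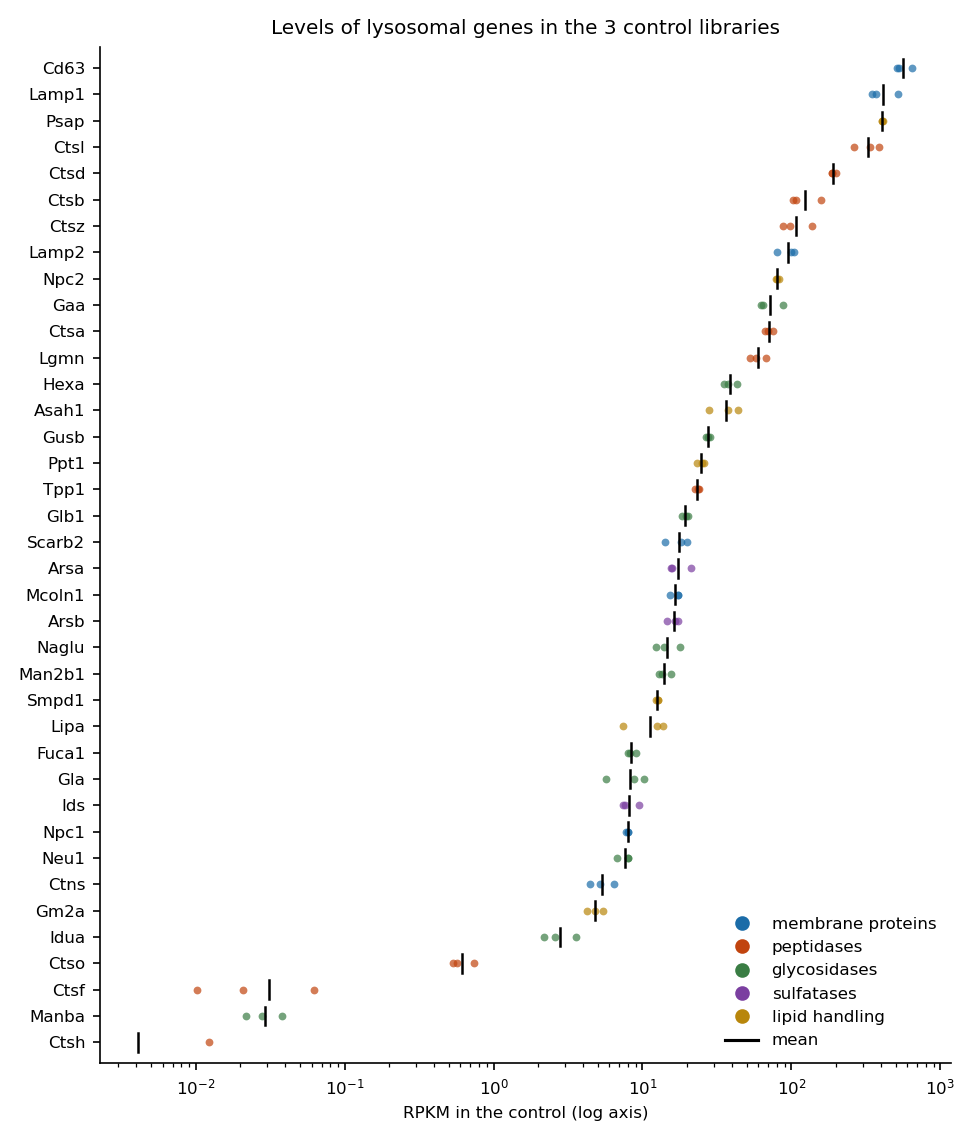
RPKM of the lysosomal genes in the 3 control libraries (points, coloured by class) and their mean (black bar) on a log axis; values of 0, including all of Ctsc, are not drawn. Cd63, Lamp1 and Psap lead with overlapping or neighbouring values, and Ctsf, Manba and Ctsh lie below 0.1 RPKM.

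Heat shock called none of the lysosomal genes at either time. At 45 min 0 of 36 members passed an adjusted p-value of 0.05 in edgeR, and neither did any of the 12731 genes (0% called). At an unadjusted p under 0.05 there were 2 members (19.5% of all genes), and DESeq2 called 0 (3.55%). The members' median log2 fold change was -0.12 against -0.03 for all genes tested. Leaving out HS 45 min replicate 3 alone gave 4 members higher and 12 lower, and 45.4% of all genes called. The 4 largest differences were those of Gla, Lipa, Lamp2 and Gaa, whose transcripts hold 46.3%, 45.5%, 38.7% and 59.5% GC. Gla had the lowest value (log2 fold change -1.20, standard error 0.686, adjusted p = 0.309). Lipa, the acid lipase that hydrolyses cholesteryl esters and triglycerides, had -1.15 (standard error 0.583, adjusted p = 0.279). Lamp2 had -1.06 (standard error 0.475, adjusted p = 0.26), and Gaa had 1.02 (standard error 0.361, adjusted p = 0.233). For all 4, the HS replicates overlapped the control. Tpp1, tripeptidyl peptidase 1, had -0.77 (standard error 0.381, adjusted p = 0.276) with overlap. Lgmn, the asparaginyl endopeptidase legumain, had 73.2, 54.6 and 98.3 CPM at 45 min against 155, 115 and 123 CPM in the control. All 3 heated libraries lay below the control (log2 fold change -0.80, standard error 0.266, adjusted p = 0.23).

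At 135 min of HS, 0 of 36 members were called by edgeR, where 7.39% of all genes were. At an unadjusted p under 0.05 there were 9 members, 8 higher (16.1% of all genes were) and 1 lower (13.5%), which is 25% of the members against 29.6% of all genes in either direction. DESeq2 called 4 members, Ctsd, Gaa, Hexa and Neu1, all higher, and 17% of all genes. The members' median log2 fold change was 0.12 against -0.02 for all genes. Leaving out HS 135 min replicate 1 alone gave 6 members higher (Arsa, Ctsd, Gaa, Hexa, Neu1 and Npc2) and 1 lower (Lamp2), with 19.4% of all genes called. All 3 HS replicates lay above the control for 7 members (18.1% of all genes tested did) and below it for 5 (19%).

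Hexa, the alpha subunit of beta-hexosaminidase, came nearest to the threshold. It had 129, 144 and 133 CPM at 135 min of HS against 80.5, 80.4 and 91.8 CPM in the control. The heated libraries all lay above the control with little spread (log2 fold change 0.69, standard error 0.179, adjusted p = 0.0555). Ctsd had 659, 745 and 665 CPM against 447, 424 and 441 CPM. Its groups did not overlap either (log2 fold change 0.66, standard error 0.187, adjusted p = 0.068).

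Lamp2 had 133.6, 78.7 and 124 CPM at 135 min of HS against 173, 212 and 199 CPM in the control. All heated libraries lay below the control (log2 fold change -0.80, standard error 0.245, adjusted p = 0.0801). Neu1, the lysosomal sialidase, had 43.7, 90.0 and 59.2 CPM against 37.8, 30.2 and 35.3 CPM, with replicate 2 far above the others (log2 fold change 0.90, standard error 0.289, adjusted p = 0.0893). Gaa overlapped the control because replicate 1 had 381 CPM where a control library had 391 CPM (log2 fold change 1.13, standard error 0.364, adjusted p = 0.0912). Ctsa, the protective protein that shields Neu1, had 0.49 (standard error 0.195, adjusted p = 0.145). Lamp1 had 0.66 (standard error 0.275, adjusted p = 0.157), Psap 0.52 (standard error 0.241, adjusted p = 0.19) and Asah1, acid ceramidase, 0.42 (standard error 0.209, adjusted p = 0.218). Neu1, Gaa, Ctsa, Psap and Asah1 were named here after their values were seen.

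**Figure D3:**
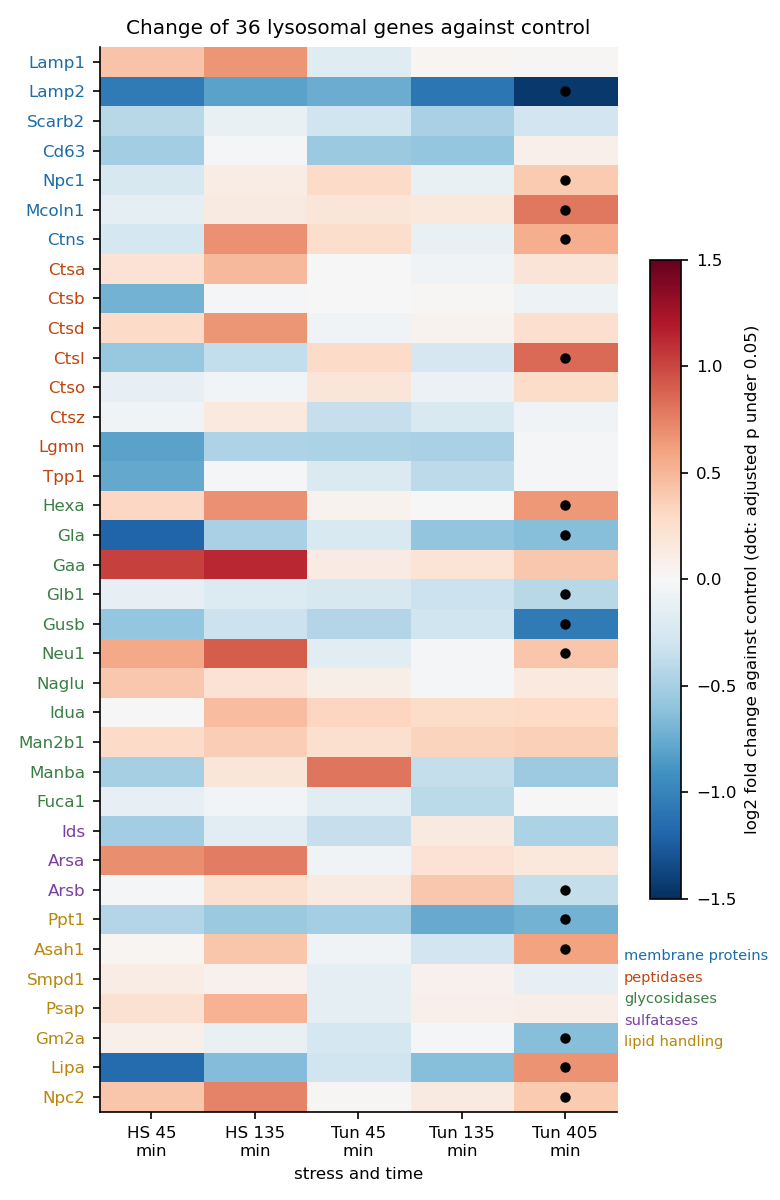
log2 fold change against the control (colour) of the 36 tested lysosomal genes in rows, named in the colour of their class, for the 5 stress groups in columns, with a black dot where the adjusted p-value from edgeR was under 0.05. All 16 dots lie in the column of 405 min of tunicamycin.

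Early tunicamycin called no lysosomal gene. At 45 min 0 of 36 members were called by edgeR, where 6.17% of all genes were. There were 3 members at an unadjusted p under 0.05 (25.6% of all genes), all lower (11.5%), and DESeq2 called 2 (14.5%), Cd63 and Gusb, both lower. Cd63 had 387, 440.2 and 369 CPM at 45 min against 564, 544 and 665 CPM in the control. All tunicamycin libraries lay below the control (log2 fold change -0.55, standard error 0.144, adjusted p = 0.0641). Gusb, beta-glucuronidase, also lay below it in all 3 libraries (log2 fold change -0.44, standard error 0.12, adjusted p = 0.0709). Lamp2 varied from 54.6 to 195 CPM at this time and overlapped the control (log2 fold change -0.74, standard error 0.412, adjusted p = 0.305). Leaving out control replicate 1 alone gave 1 member higher (Idua) and 2 lower (Cd63 and Gusb), where 19.6% of all genes were called.

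At 135 min of tunicamycin, edgeR called 0 of 36 members, where 0.134% of all genes were called. There were 6 members at an unadjusted p under 0.05 (18.6% of all genes), all lower (8.49%), and DESeq2 called 1 (5.22%), Ppt1. Ppt1, palmitoyl-protein thioesterase 1, which removes fatty acids from cysteines, had 35.3, 49.1 and 41.1 CPM against 77.7, 66.4 and 70.7 CPM in the control. Its 3 tunicamycin libraries all lay below the control (log2 fold change -0.76, standard error 0.189, adjusted p = 0.125). Lamp2 lay below the control in all 3 libraries too (log2 fold change -1.09, standard error 0.366, adjusted p = 0.19). All 3 tunicamycin libraries lay below the control for 9 members, or 25%, against 13.6% of all genes tested, and above it for 2 (13.7%). The replicate 1 library of this group was the one that followed GC content, and its part in these values was not tested. Same-numbered libraries of this group and the control deviated together, and the fit did not pair them. With a block on the replicate number, edgeR called 0 members and 0% of all genes.

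At 405 min of tunicamycin, 16 of 36 lysosomal genes were called by edgeR's quasi-likelihood test, 9 higher (23.3% of all genes were) and 7 lower (23.5%). That is 44.4% of the members where 46.8% of all genes were called, so the share of called members was close to that of all genes. The members' median log2 fold change was 0.09 against -0.01 for all genes tested. Membrane proteins had 3 higher and 1 lower of 7, peptidases 1 higher and 0 lower of 8, glycosidases 2 higher and 3 lower of 11, sulfatases 0 higher and 1 lower of 3, and lipid genes 3 higher and 2 lower of 7. All 3 tunicamycin libraries lay above the control for 12 members (29.2% of all genes did) and below it for 9 (29.5%). The counts depended on single libraries. There were 17 members higher without control replicate 1, 5 without control replicate 2 or 3 or Tun 405 min replicate 1, and 4 without Tun 405 min replicate 2 or 3. There were 4 members lower without control replicate 3, and 3 without Tun 405 min replicate 2 or 3. The share of all genes called moved as well, to 62% without control replicate 1, 39.8% and 39.3% without control replicates 2 and 3, and 41.3%, 31.9% and 32.7% without Tun 405 min replicates 1, 2 and 3. Without TMM factors, on total counts alone, 4 members were higher and 8 lower, with 45.8% of all genes called. Lamp2, Gusb, Ppt1, Mcoln1 and Hexa were called in every alternative fit and without any single library. In bulk RNA, fewer cells of a kind and less RNA per cell cannot be told apart, and 7 of the 10 fibroblast markers were lower at this time as well, their sum being 21000 to 23000 against 29800 to 39100 CPM in the control. The macrophage markers summed to 5.86 to 6.62 against 9.89 to 10.4 CPM. The part of either list in these results was not tested.

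The largest rises were in a cathepsin, a calcium channel, lipid hydrolases and a hexosaminidase subunit. On mm9, the build of the files, Ctsl lies at chr13:64464522-64471614, Mcoln1 at chr8:3500519-3515231 and Hexa at chr9:59387474-59412912. Ctsl had 1314, 1455 and 1263 CPM at 405 min against 630.4, 773 and 863 CPM in the control. All 3 tunicamycin libraries stood well above the control (1.81-fold, log2 fold change 0.85, standard error 0.154, adjusted p = 0.00272). The call was lost in the fit that shared 1 spread over all 6 groups, where the heated libraries enter (adjusted p = 0.309). Mcoln1, mucolipin 1, the calcium channel TRPML1 of the lysosomal membrane, had 64.5, 67.9 and 66.3 CPM against 42.5, 35.2 and 39.2 CPM. The tunicamycin libraries lay close together above every other library of the series (1.73-fold, log2 fold change 0.79, standard error 0.124, adjusted p = 0.00139).

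Lipa had 65.4, 59.6 and 58.3 CPM at 405 min against 27.0, 43.0 and 46.3 CPM in the control. The tunicamycin libraries lay above a control that varied between its replicates (log2 fold change 0.68, standard error 0.196, adjusted p = 0.0216), and the call held in 3 of 6 fits that left out 1 library. The call of Lipa was lost in the fit shared by all 6 groups and on total counts without TMM. Asah1 had 149.8, 141 and 137 CPM against 76.4, 97.6 and 113 CPM. All tunicamycin libraries exceeded the control (log2 fold change 0.60, standard error 0.152, adjusted p = 0.0127). Hexa had 123, 134 and 134 CPM against 80.5, 80.4 and 91.8 CPM. Its groups were well apart (log2 fold change 0.65, standard error 0.117, adjusted p = 0.00262).

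Smaller rises were called for 4 members. Ctns, the cystine exporter cystinosin, rose by 0.55 on the log2 scale (standard error 0.184, adjusted p = 0.0387) and Neu1 by 0.41 (standard error 0.144, adjusted p = 0.0455). Npc1 rose by 0.39 (standard error 0.14, adjusted p = 0.0493), and Npc2, which hands cholesterol to Npc1, by 0.39 (standard error 0.126, adjusted p = 0.0348). Npc1 and Ctns kept the call in 1 of 6 fits that left out 1 library, and Neu1 and Npc2 in 2 of 6.

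Lamp2 had the largest fall of the members. On mm9, Lamp2 lies at chrX:35758241-35809632, Gusb at chr5:130464891-130478698 and Ppt1 at chr4:122513485-122536418. Lamp2 had 84.7, 62.7 and 63.1 CPM at 405 min against 173, 212 and 199 CPM in the control. The tunicamycin libraries all lay far below the control (0.365-fold, log2 fold change -1.45, standard error 0.156, adjusted p = 0.000236). Lamp1, its close relative, had 1142, 1098 and 1024 CPM against 1426, 903 and 942 CPM, and the groups overlapped. Gusb had 41.0, 35.7 and 35.8 CPM against 82.8, 76.3 and 79.0 CPM. All tunicamycin libraries lay below the control with little spread (0.48-fold, log2 fold change -1.06, standard error 0.12, adjusted p = 0.000294).

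Ppt1 had 43.98, 40.5 and 45.4 CPM at 405 min against 77.7, 66.4 and 70.7 CPM in the control. The groups did not overlap (log2 fold change -0.70, standard error 0.123, adjusted p = 0.0024). Gm2a, the GM2 activator that presents ganglioside to beta-hexosaminidase, had 7.70, 6.88 and 6.98 CPM against 13.3, 11.1 and 9.56 CPM. It fell while Hexa, the enzyme subunit, rose (log2 fold change -0.63, standard error 0.167, adjusted p = 0.0146). Gla had 20.1, 18.3 and 16.8 CPM against 21.0, 30.8 and 35.1 CPM. Its highest tunicamycin library lay just below its lowest control library (log2 fold change -0.63, standard error 0.192, adjusted p = 0.0265), and the call held in 1 of 6 fits that left out 1 library.

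Glb1, beta-galactosidase, fell by 0.41 on the log2 scale (standard error 0.13, adjusted p = 0.0307), and Arsb, arylsulfatase B, fell by 0.36 (standard error 0.114, adjusted p = 0.0298). Ids, iduronate 2-sulfatase, had -0.47 (standard error 0.178, adjusted p = 0.0589) and lay below the control in all 3 libraries. Glb1 kept the call in 3 of 6 fits that left out 1 library and Arsb in 2 of 6. Ctsb, at 693, 616 and 607 CPM against 912, 559.6 and 582 CPM, overlapped the control. Ctsd, at 502, 537 and 496 CPM against 447, 424 and 441 CPM, lay above the control in all 3 libraries and was not called, and Cd63, at 613, 629 and 599 CPM, overlapped it.

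**Figure D4:**
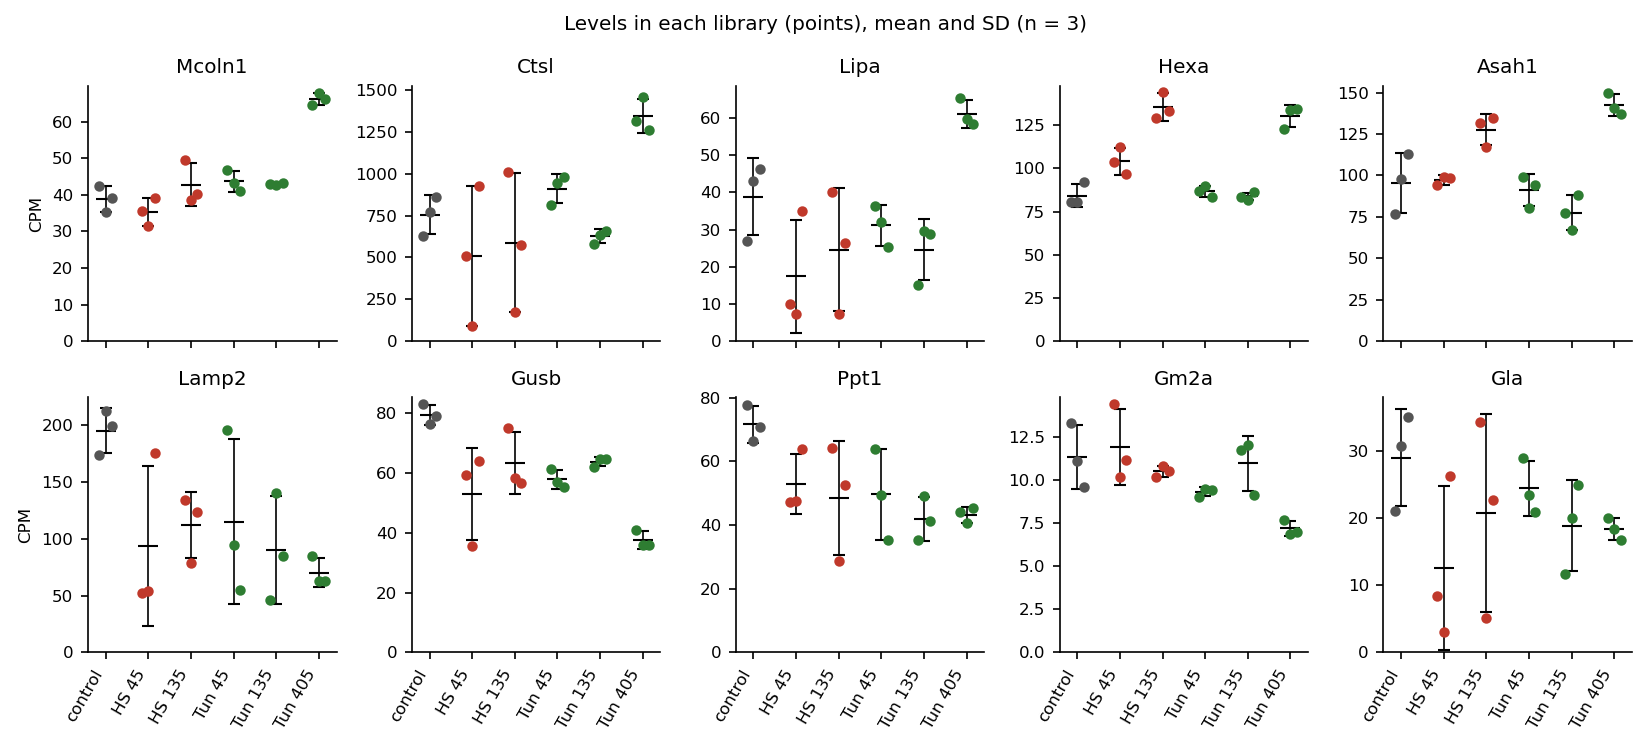
CPM in each library (points; control grey, HS red, tunicamycin green) with the mean and SD (n = 3) of 10 lysosomal genes called at 405 min of tunicamycin, 5 higher in the upper row and 5 lower in the lower row. The 3 libraries at 405 min lie outside the range of the control in every panel, for Gla only just below it. HS libraries of Ctsl, Lipa, Lamp2 and Gla spread widely.

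Between 135 and 405 min of tunicamycin, 7 members rose (21.4% of all genes did) and 3 fell (22.4%) of 36, or 27.8% called against 43.7% of all genes. Lipa rose 2.45-fold, from 15.2, 29.7 and 28.9 to 65.4, 59.6 and 58.3 CPM (log2 fold change 1.29, standard error 0.251, adjusted p = 0.00504). Ctsl rose 2.12-fold, from 580.2, 636 and 660.4 CPM (log2 fold change 1.08, standard error 0.138, adjusted p = 0.000811). For both, the libraries at 405 min lay above all those at 135 min. Asah1, Cd63, Hexa, Mcoln1 and Lgmn rose by log2 fold changes of 0.43 to 0.85, and Arsb, Gusb and Gm2a had -0.79, -0.79 and -0.63. Lamp2 was not called here and ranged from 45.6 to 139.7 CPM at 135 min. There were 14 members higher and 6 lower without Tun 135 min replicate 1, which followed GC content, where 63.8% of all genes were called. There was 1 member lower, Gusb, without Tun 135 min replicate 2 or without Tun 405 min replicate 2 or 3 (34.2%, 28.2% and 27.9% of all genes called). With an offset for GC content, 12 were higher and 4 lower (52.9% of all genes called). Cd63, Lgmn and Arsb kept the call in 2 of 6 fits that left out 1 library and Gm2a in 3 of 6, whereas Lipa, Ctsl, Asah1, Hexa, Mcoln1 and Gusb kept it in all 6. In the fit shared by all 6 groups, Lipa, Ctsl and Lgmn lost the call.

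HS and tunicamycin were compared directly at 135 min, the last time that both had. edgeR called 0 of 36 members (2.12% of all genes), with 6 at an unadjusted p under 0.05 (20% of all genes), all higher under HS (10.2%), and DESeq2 called 3 (9.87%), Asah1, Ctsd and Hexa. HS libraries lay above all tunicamycin libraries for 8 members (13.4% of all genes did) and below for 0 (13.1%). Hexa had 129, 144 and 133 CPM under HS and 83.5, 81.7 and 86.1 CPM under tunicamycin. The groups stood apart (log2 fold change 0.67, standard error 0.152, adjusted p = 0.0743). Asah1 had 131, 117 and 135 CPM against 77.4, 67.0 and 88.4 CPM, again without overlap (log2 fold change 0.69, standard error 0.173, adjusted p = 0.0874). Ctsd had 0.59 (standard error 0.167, adjusted p = 0.111) and Neu1 0.93 (standard error 0.309, adjusted p = 0.16).

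Other genes that build, acidify and supply the lysosome were called in both directions at 405 min of tunicamycin, when 46.8% of all genes were called, 23.3% higher and 23.5% lower. The counts of the 4 lists that follow are read beside these shares, and none was tested against them. Of 31 genes tested from a list of other lysosomal genes, 6 were higher and 7 lower. Not all genes of this list encode lysosomal proteins, and Pla2g4a, for example, is a cytosolic phospholipase. Scpep1, a serine carboxypeptidase, rose 3.01-fold (log2 fold change 1.59, standard error 0.188, adjusted p = 0.000372), and Ctsk, cathepsin K, and Manbal rose by 0.90 and 0.83. Pla2g4a fell to 0.498-fold, the lysosomal phospholipase Pla2g15 had a log2 fold change of -0.88 and the hyaluronidase Hyal2 -0.81. At 135 min of HS 1 of the 31 was called, Dpp7, a dipeptidyl peptidase (log2 fold change 1.14, standard error 0.259, adjusted p = 0.0402).

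Of the 17 genes of the V-ATPase, the proton pump that acidifies lysosomes, 5 were higher and 2 lower at 405 min of tunicamycin. Atp6v1g1, Atp6v1f and Atp6v0e2 had log2 fold changes of 1.21, 0.87 and 0.85, while Atp6v1a, the catalytic subunit, had -0.69 and Atp6ap1, an accessory subunit, -0.42. Of 9 genes for mannose 6-phosphate tagging and sorting, 2 were higher and 3 lower. The subunits of the tagging enzyme went opposite ways, with Gnptg at 0.99 (standard error 0.132, adjusted p = 0.000643) and Gnptab, which carries the catalytic part, at -0.86 (standard error 0.165, adjusted p = 0.00365). Igf2r, the large mannose 6-phosphate receptor, fell from 441 ± 64.2 to 206 ± 14.3 CPM (SD, n = 3), the sorting receptor Sort1 had -0.74 and the adaptor Gga2 0.38.

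Of 12 lysosome regulators tested, 3 were higher and 3 lower. Tfe3 (Tcfe3 in the files), a transcription factor of the TFEB family, rose from 131 ± 24.6 to 221 ± 3.88 CPM (log2 fold change 0.77, standard error 0.154, adjusted p = 0.00437). Tfeb itself (Tcfeb in the files) had 6.20, 7.64 and 6.78 CPM at 405 min against 10.4, 6.45 and 6.955 CPM in the control. Mitf, of the same family, had 10.45, 9.79 and 8.40 CPM against 10.54, 7.21 and 6.15 CPM. Both overlapped the control. Lamtor3 (Mapksp1 in the files) and Rraga, which hold mTORC1 at the lysosome, had 0.94 and 0.41. Fnip2, which binds folliculin, had -0.68, and Mtor and Rptor, the kinase and the scaffold of mTORC1, -0.56 and -0.64.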

How the data were processed

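Poly(A) RNA was sequenced by the authors on an Illumina HiSeq, and reads were counted on RefSeq genes with DNAnexus. The genome build per the labels was mm9, and the aligner, counter and versions are not given in the sources used here. The authors deposited an estimated count per gene, unnormalized and written with 4 significant digits (17.7% to 23.2% of low values not whole), and an RPKM value from count, gene length and library total. Deposited Z-scores and RMS-scaled RPKM were not used. Estimated counts were rounded. Each comparison was a fit of its 6 libraries (edgeR 4.0.16, R 4.3.3, TMM, quasi-likelihood test). Genes needed 1 read or more in every library (12731 passed), and p-values were Benjamini-Hochberg adjusted over them, with a threshold of 0.05 after the study's methods. Standard errors came from the fold change and its F statistic. CPM used TMM factors over all 18 libraries. Levels between genes were compared as RPKM only.

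The members and lists were chosen with earlier results of these data known, so nothing here is independent support for a pattern. Genes named were, per comparison, up to 4 called members per class and direction, the highest member of each class in the control, Lamp1, Lamp2, Ctsb, Ctsd, Ctsl and Npc1, and members under 10 reads. Values per library are given for the 12 members with the smallest p against the control. Of other lists, up to 3 called genes per direction were named, and Tfeb and Mitf were added beside Tfe3. Members named that were not called were chosen after their values were seen.

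The alternatives were no filter beyond 1 read in 1 compared library, DESeq2 size factors, total counts without TMM, the DESeq2 1.42.0 Wald test, a fit shared by all 6 groups, a block on the replicate number, an offset for transcript GC content (97.5% of genes tested had a value), that offset with the block, and leaving out each library. Same-numbered libraries deviated together in every pair (correlation 0.207 to 0.295) only for 135 min of tunicamycin against the control. The main fit of that comparison did not pair them, and only the alternatives with the block used the replicate number. Replicates differed by more than sampling noise (chi-square per degree of freedom 16 to 875), so none was counted as a repeat. Of the lists, Lamtor2 was not matched. Promoters came from RefSeq on GRCm38.p6, with a window for 35 of 39 members, and coordinates on that build were not mixed with mm9.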

Additional observations from a re-analysis of the deposited data

Results flagged for a closer look

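Levels differed between 135 and 405 min of tunicamycin for 10 lysosomal genes, by the edgeR test of the difference between these groups (adjusted p 0.000811 to 0.0306). No untreated group of the same times was measured, so time in culture is part of this difference. Higher at 405 min were Lipa (log2 difference 1.29), Ctsl (1.08), Asah1 (0.85), Cd63 (0.63), Hexa (0.62), Mcoln1 (0.61) and Lgmn (0.43). Lower at 405 min were Arsb (-0.79), Gusb (-0.79) and Gm2a (-0.63). Without 1 library, Cd63, Lgmn and Arsb kept the call in 2 of 6 fits and Gm2a in 3 of 6, and Cd63, Lgmn, Arsb and Gm2a lost it with the replicate block. Ctsl, Lipa and Lgmn lost it in the edgeR fit shared by all 6 groups (adjusted p = 0.167 for Ctsl and 0.0819 for Lipa). Both groups were compared with the same control, and 43.7% of all genes differed between them.

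For 2 genes, HS and tunicamycin libraries lay on opposite sides of the control in CPM scaled with TMM factors, and these differences were not tested. Smpd1, acid sphingomyelinase, had 37.3 to 40.5 CPM at 45 min of HS, 35.1 to 36.1 CPM in the control, 31.1 to 34.0 CPM at 45 min and 32.1 to 32.5 CPM at 405 min of tunicamycin. Its log2 fold changes under HS and tunicamycin were 0.24 apart at 45 min, and 0.23 apart between 45 min of HS and 405 min of tunicamycin. Psap had 1419 to 2258 CPM at 135 min of HS, 1237 to 1314 CPM in the control and 1095 to 1221 CPM at 45 min of tunicamycin, and its log2 fold changes were 0.65 apart. The opposite sides depended on the scaling. On total counts without TMM, Smpd1 ranged from 31.5 to 42.5 CPM at 45 min of HS and from 33.3 to 38.6 CPM at 45 min of tunicamycin, overlapping the control at 35.85 to 37.4 CPM. Psap at 45 min of tunicamycin then had 1267 to 1309 CPM and overlapped the control at 1297 to 1312 CPM.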

How the results depend on the processing

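Alternatives were computed gene by gene for 26 called and 25 uncalled log2 fold changes, and none of these changed sign. Of the 26 called, 175 of 208 values under alternatives and 105 of 156 without 1 library stayed called. Counts of called members moved as follows, with the share of all genes called in either direction in brackets. With DESeq2 there were 4 higher at 135 min of HS (17%). At 45 min of tunicamycin it gave 2 lower (14.5%), at 135 min 1 lower (5.22%), and for HS against tunicamycin 3 higher (9.87%). With the shared fit there were 1 lower at 45 min (10.6%) and 6 higher at 135 min of HS (25.5%). It gave 3 higher of 8 called at 405 min of tunicamycin (31.9%) and 6 higher for HS against tunicamycin (13.9%). With the GC offset there were 3 higher at 135 min of HS (19.8%) and 2 lower at 45 min of tunicamycin (15.3%). It gave 2 higher for HS against tunicamycin (11.8%) and 12 higher of 16 called between 135 and 405 min (52.9%). On total counts 4 of 12 called were higher at 405 min (45.8%). The cause was not tested. Leaving out TMM shifts all log2 fold changes together, by -0.19 to 0.12 by comparison.

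The replicate block left 6 members higher and 6 lower at 405 min of tunicamycin against the control, where 41.4% of all genes were called. Against 135 min it left 5 higher and 1 lower (29.5% of all genes). The number did not pair the libraries in either of these comparisons. In all others it left 0 members, with 0.165% of all genes called at 45 min of tunicamycin and 0% in the rest. The 26 called log2 fold changes kept their sign under the block. Every group holds the same replicate numbers, so the block hardly moves a fold change, and the kept signs are not a separate check.

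Without 1 library, the counts of members higher and lower ranged from 0 to 4 and 0 to 12 at 45 min of HS, 0 to 6 and 0 to 1 at 135 min of HS, 0 to 1 and 0 to 2 at 45 min of tunicamycin, and 4 to 17 and 3 to 8 at 405 min. For 405 against 135 min of tunicamycin they ranged from 5 to 14 and 1 to 6. Both remained 0 at 135 min of tunicamycin and for HS against tunicamycin. The share of all genes called ranged from 0% to 45.4% at 45 min and 0.0864% to 19.4% at 135 min of HS. It ranged from 0.456% to 19.6% at 45 min, 0% to 0.479% at 135 min and 31.9% to 62% at 405 min of tunicamycin. For 405 against 135 min of tunicamycin it was 27.9% to 63.8%, and for HS against tunicamycin 0% to 2.86%. Depth limited Manba, Ctsc, Ctsf and Ctsh only, and the floor of 3 reads covers counting error only.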
